A study of Rattus norvegicus with 6 samples.

Results

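The translation initiation factors of rat myocardium are described here. They were taken from the deposited expression table by their symbols, as every row named Eif followed by a digit from 1 to 6, which also takes in the eIF2 kinases (Eif2ak) and the eIF4E binding proteins (Eif4ebp). The rule gave 50 of 30452 rows. RNA sequencing was performed on myocardial tissue from 3 sham rats and 3 rats with myocardial ischemia/reperfusion injury (MI/RI), all of them male and wild type per the labels, with no strain or age given. Both groups underwent thoracotomy under anesthesia, and ligation of the left anterior descending (LAD) artery made the MI/RI hearts ischemic for 30 min, with the tissue taken 6 h after release. The sham titles carry these same times. Whole myocardial tissue was used, with no sorting of cells, and the labels do not say which area of the ventricle was taken. The comparison asks how the mRNAs of the initiation machinery differ between hearts after reperfusion and sham hearts.

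Initiation is the step of protein synthesis at which a ribosome is placed on the start codon of an mRNA. eIF2 brings the initiator tRNA to the small ribosomal subunit, eIF3 and the small factors eIF1 and eIF1A keep that subunit open for scanning, and eIF4F, made of the cap-binding protein eIF4E, the scaffold eIF4G and the helicase eIF4A, recruits it to the capped end of the mRNA. The process is held back at 2 main points: kinases of the Eif2ak family phosphorylate eIF2 and thereby block its exchange factor eIF2B, and unphosphorylated eIF4E binding proteins take eIF4E away from eIF4G. All values below are mRNA levels, and neither phosphorylation nor protein was measured.

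The values are FPKM, a fragment level corrected for gene length and library size, and each log2 fold change is MI/RI minus sham of log2(FPKM + 0.1), tested with limma over 10942 genes and adjusted by Benjamini-Hochberg, with a call at an adjusted p under 0.05. Absolute depth is unknown. Relative to sham replicate 1, depth was 1.181 and 1.136 in sham replicates 2 and 3 and 0.873, 0.935 and 0.881 in MI/RI replicates 1 to 3. Every MI/RI library was thus shallower than every sham library, and the part of this in the results was not tested. The 13 mRNAs encoded by mitochondrial DNA took 80.1% to 86.2% of the summed FPKM in the sham libraries and 61.8% to 71.5% in the MI/RI libraries, and over all genes tested the median log2 fold change came to 0.29. Myocardial identity was checked by cardiomyocyte markers, of which 6 of 7 were found. Their summed level was 2519 to 7046 FPKM in sham and 14261 to 20000 FPKM in MI/RI rats, with 5 of 6 called higher. The summed level of 6 endothelial markers was 134 to 169 FPKM against 140 to 165 FPKM, and that of 7 neutrophil and monocyte markers 51.0 to 67.2 FPKM against 74.3 to 142 FPKM. This last list was mixed, with 3 of 6 tested called higher and 1 lower. Ccr2 went down, from 0.658, 0.974 and 1.59 FPKM in sham to 0.282, 0.451 and 0.308 FPKM in MI/RI rats. Of 6 macrophage markers, 1 was called higher and 2 lower. The part of these differences in the results on initiation factors was not tested, and in whole tissue fewer cells of a type and less RNA per cell cannot be told apart.

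One member of the family bore on the labels. Eif2s3y, the Y-linked copy of the gene for the gamma subunit of eIF2, was at 4.04, 4.71 and 4.81 FPKM in sham replicates 1 to 3, at 4.93 FPKM in MI/RI replicate 1, and at 0.0176 and 0.0281 FPKM in MI/RI replicates 2 and 3. Kdm5d, another Y-linked gene, was at 0.444 to 1.06 FPKM in the sham rats, 0.536 FPKM in MI/RI replicate 1 and 0 in MI/RI replicates 2 and 3. The libraries labelled MI/RI replicates 2 and 3 therefore went against the label of male rats, and counts are given below with and without them. The lower call of Eif2s3y (log2 fold change −3.44, adjusted p = 0.0457) was a difference of MI/RI replicates 2 and 3 from the other 4 libraries, and with MI/RI replicate 1 alone against the sham rats the log2 fold change was 0.13.

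Of the 50 rows, 49 passed the filter of a mean of 0.5 FPKM, and the pseudogene Eif6-ps1 was listed at 0 in all 6 libraries. Of the 49, 19 were higher in the MI/RI rats, against 25.5% of all genes, 2 were lower, against 7.36% of all genes, and 28 were not called. The values of the 2 groups did not overlap for 30 members that were higher, against 37.2% of all genes, and for 4 that were lower, against 13% of all genes. The median log2 fold change of the members was 0.53, and 34 of 49 lay above the median of all genes. Abundant genes were called more often, and among genes with a mean of at least 10 FPKM, 14 of 22 members were higher against 55.5% of 2078 genes. The direction depended on the scaling: with the FPKM rescaled to the total of all genes other than the mitochondrially encoded mRNAs, 1 member was higher and 7 were lower, against 7.25% and 26.1% of all genes, and the members' median was −0.25 beside −0.46 for all genes. Under quantile normalization 4 members were higher (Eif2b3, Eif3b, Eif3d and Eif4ebp1) and 4 were lower, against 13.2% and 14.2% of all genes. Without sham replicate 3, 10 members were called higher, against 14% of all genes. With MI/RI replicate 1 alone, taken to vary like the sham rats, limma called 12 members higher and 0 lower (0 also at an unadjusted p under 0.05), against 19.7% and 4.29% of all genes, and 11 of these 12 were among the 19.

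The summed level of the 50 genes showed the same dependence. It was 621, 611 and 579 FPKM in the sham rats and 1117, 991 and 886 FPKM in the MI/RI rats, so every MI/RI library lay above every sham library (604 ± 22.0 against 998 ± 116 FPKM, SD, n = 3 each, two-sided exact permutation p = 0.1, the smallest that 3 rats against 3 allow). As a share of the FPKM outside the mitochondrially encoded mRNAs, the sum was 0.346%, 0.458% and 0.45% in sham and 0.4%, 0.413% and 0.377% in MI/RI rats. These shares overlapped, with the lowest and the highest values both in sham rats (0.418% ± 0.0627 against 0.397% ± 0.0185, SD, n = 3 each, exact permutation p = 0.6). The sum was thus apart in FPKM and overlapped as a share of the non-mitochondrial transcripts.

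**Figure D1:**
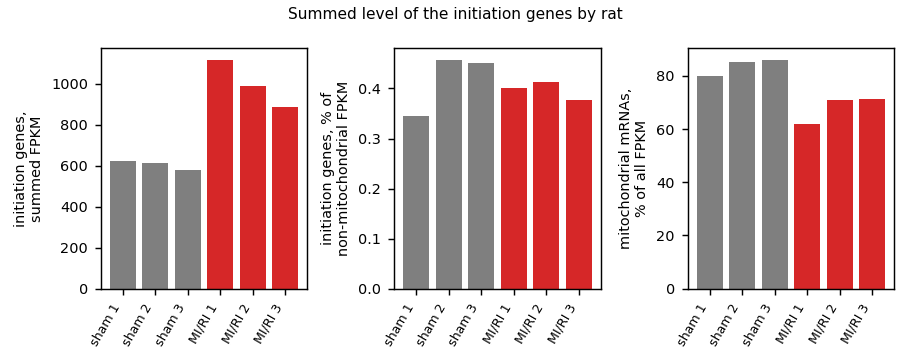
Bars show, for each of the 6 rats, the summed FPKM of the initiation genes (left), that sum as a percentage of the FPKM outside the 13 mitochondrially encoded mRNAs (middle), and the percentage of all FPKM in those mRNAs (right), with sham in grey and MI/RI in red. The sum lies at 579 to 621 FPKM in sham and 886 to 1117 FPKM in MI/RI rats, while the percentages in the middle overlap.

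**Figure D2:**
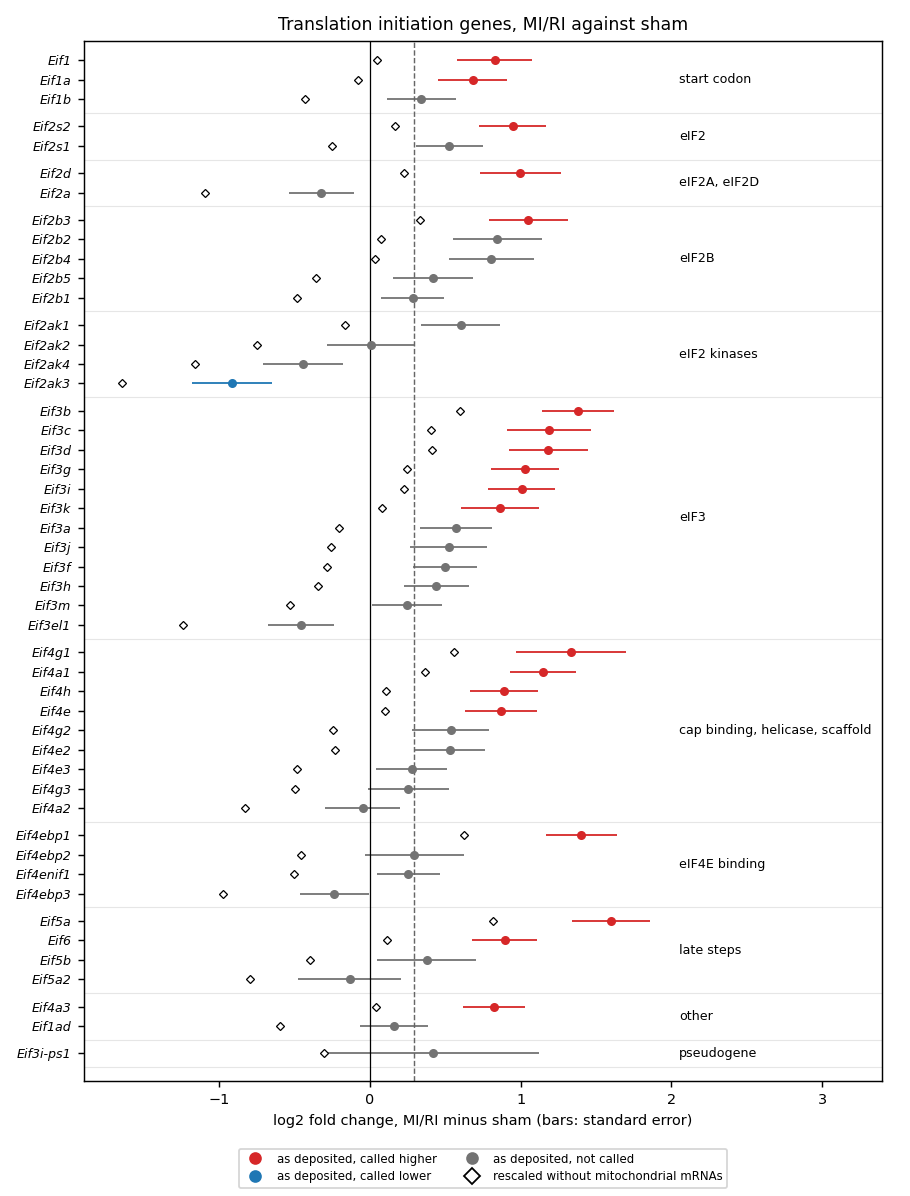
Each row is a tested gene grouped by role, and the x axis is its log2 fold change, MI/RI minus sham. Filled points with standard errors are FPKM as deposited (red called higher, blue called lower, grey not called), open diamonds are the values rescaled without the mitochondrially encoded mRNAs, and the dashed line marks the median of all genes, 0.29; Eif2s3y, at −3.44, is left out to keep the scale readable.

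The largest rise of a single factor was that of Eif5a, which encodes the factor that helps the ribosome form peptide bonds and that carries the rare amino acid hypusine. Its level was 16.5, 22.9 and 20.1 FPKM in the sham rats and 80, 50.8 and 52.2 FPKM in the MI/RI rats. Each MI/RI rat stood above each sham rat, with MI/RI replicate 1 the highest. The log2 fold change was 1.60 (SE 0.26, adjusted p = 0.00366), and Eif5a was the 1 member that was also higher with the mitochondrially encoded mRNAs left out (log2 fold change 0.82, adjusted p = 0.0361), while under quantile normalization its call was lost (log2 fold change 0.67, adjusted p = 0.065). Among the 10942 genes ranked by level within each library, Eif5a stood at 1070, 726 and 705 in sham and at 479, 588 and 555 in MI/RI rats. Its paralog Eif5a2 stayed low, at 0.491, 0.572 and 0.518 FPKM in sham and 0.552, 0.437 and 0.43 FPKM in MI/RI rats (log2 fold change −0.14, adjusted p = 0.786).

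The 2 enzymes that make hypusine on eIF5A were higher in the MI/RI rats as well. Dhps, deoxyhypusine synthase, was at 5.36, 4.2 and 3.37 FPKM in sham and 17.7, 12.4 and 11 FPKM in MI/RI rats (log2 fold change 1.64, SE 0.27, adjusted p = 0.00366). Dohh, deoxyhypusine hydroxylase, was at 3.11, 1.23 and 1.74 FPKM in sham and 6.59, 5.69 and 8.21 FPKM in MI/RI rats (log2 fold change 1.79, SE 0.32, adjusted p = 0.00487). Neither gene overlapped between the groups, and both kept a higher call without the mitochondrially encoded mRNAs, with log2 fold changes of 0.87 and 1.03.

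Among the other late factors, Eif6, whose product keeps the large ribosomal subunit from joining too early, was at 13.4, 11.2 and 10.3 FPKM in sham and 20.2, 21.3 and 23.2 FPKM in MI/RI rats. The groups did not overlap (log2 fold change 0.89, SE 0.22, adjusted p = 0.0132), and the call was lost without sham replicate 3 (adjusted p = 0.0591). Eif5b, the GTPase of subunit joining, was at 14.3 FPKM in sham replicate 1, above every MI/RI rat, and at 6.46 and 6.23 FPKM in the other sham rats (log2 fold change 0.38, adjusted p = 0.402).

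Grouped as cap binding, helicase and scaffold were 9 genes, not all of them part of eIF4F. Of these 9, 4 were higher, against 25.5% of all genes, and 0 were lower by limma (0 also at an unadjusted p under 0.05), against 7.36%. Their means ran from 2.46 to 59.3 FPKM, and 55.5% of genes with a mean of at least 10 FPKM were called higher. Eif4a1, the main helicase gene, was at 33.9, 39.7 and 36.9 FPKM in sham and 84.7, 87.1 and 73.6 FPKM in MI/RI rats, a wide gap with little spread inside either group (log2 fold change 1.15, SE 0.22, adjusted p = 0.00565). Its close paralog Eif4a2 was at 20.5, 26.4 and 28.8 FPKM in sham and 28.4, 25.8 and 19.2 FPKM in MI/RI rats. These ranges overlapped almost fully, and the log2 fold change was −0.05 (95% interval −0.60 to 0.50, adjusted p = 0.894). Rescaled without the mitochondrially encoded mRNAs, Eif4a1 was not called (log2 fold change 0.37) and Eif4a2 was lower (log2 fold change −0.83, adjusted p = 0.0354). By rank within the library, Eif4a1 moved little, from 556, 424 and 377 in sham to 453, 366 and 411 in MI/RI rats, while Eif4a2 went from 875, 625 and 489 to 1165, 1030 and 1274.

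The scaffold Eif4g1 was at 7.46, 8.47 and 4.99 FPKM in sham and 30.9, 13.8 and 12.1 FPKM in MI/RI rats. MI/RI replicate 1 was more than 2 times as high as the other MI/RI rats, and the groups did not overlap (log2 fold change 1.33, SE 0.36, adjusted p = 0.0206). The call was lost without sham replicate 3 (adjusted p = 0.0778) and kept without MI/RI replicate 1 (adjusted p = 0.0429). Eif4g2, which lacks the eIF4E binding site, was at 17.9, 25.2 and 23.4 FPKM in sham and 39.9, 32.4 and 25 FPKM in MI/RI rats (log2 fold change 0.53, adjusted p = 0.135). Eif4g3, the other scaffold that binds eIF4E, was at 2.16, 2.9 and 1.69 FPKM against 3.27, 2.67 and 2.1 FPKM (log2 fold change 0.25, adjusted p = 0.493), and both of these genes overlapped between the groups.

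Eif4e, the cap-binding protein, was at 3.22, 4.61 and 3.5 FPKM in sham and 8.19, 6.95 and 5.75 FPKM in MI/RI rats. It was higher with no overlap (log2 fold change 0.87, SE 0.24, adjusted p = 0.0214), but the call was lost without sham replicate 1, sham replicate 3, MI/RI replicate 1 or MI/RI replicate 2 (adjusted p = 0.055, 0.0772, 0.0573 and 0.0579). Its relatives were not called. Eif4e2, a cap-binding protein that does not join eIF4G in the usual way, was at 3.54, 3.43 and 3.32 FPKM in sham and 6.47, 4.73 and 4.09 FPKM in MI/RI rats (log2 fold change 0.53, adjusted p = 0.105), and Eif4e3 had a log2 fold change of 0.28. Eif4h, which stimulates the helicase, was higher (18.2 ± 2.99 against 33.6 ± 3.38 FPKM, SD, n = 3 each, log2 fold change 0.89, adjusted p = 0.0161), a call lost without sham replicate 3 or MI/RI replicate 2 (adjusted p = 0.0684 and 0.0626).

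Of the 3 eIF4E binding proteins, which repress cap-dependent initiation, 1 was called higher, a share near the 25.5% of all genes. Eif4ebp1 was at 6.39, 5.73 and 4.43 FPKM in sham and 17.3, 13.4 and 13.4 FPKM in MI/RI rats. All MI/RI rats were above all sham rats (log2 fold change 1.40, SE 0.24, adjusted p = 0.00404), and its rank within the library went from 2553, 3151 and 3392 to 1739, 1803 and 1727. Eif4ebp2 was at 2.26, 2.14 and 1.34 FPKM in sham and 3.74, 1.84 and 1.79 FPKM in MI/RI rats, and only MI/RI replicate 1 exceeded the sham range (log2 fold change 0.29, adjusted p = 0.52). Eif4ebp3 was at 1.42, 1.87 and 1.78 FPKM against 1.52, 1.37 and 1.34 FPKM, with overlap (log2 fold change −0.24, adjusted p = 0.454). Without the mitochondrially encoded mRNAs, Eif4ebp3 was called lower (log2 fold change −0.98, adjusted p = 0.0363). Eif4enif1, which carries eIF4E into the nucleus, was not called (log2 fold change 0.25, adjusted p = 0.378).

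**Figure D3:**
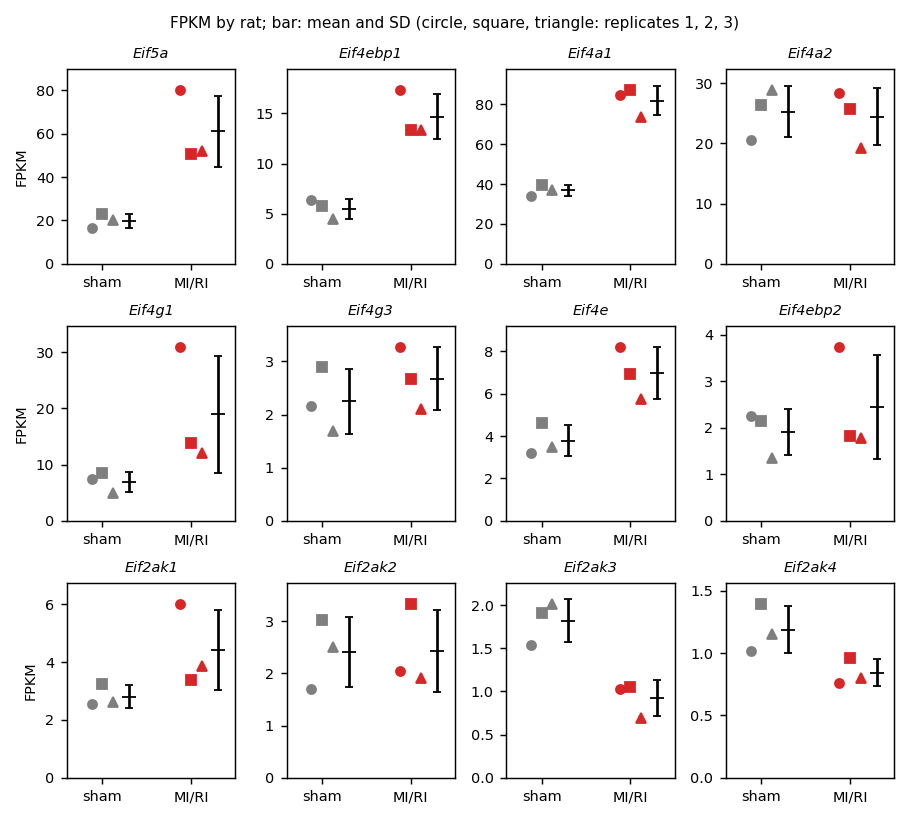
FPKM of 12 genes in each rat, with sham in grey and MI/RI in red, symbols for the replicates, and the mean and SD (n = 3) beside each group; each y axis starts at 0 and has its own scale. Eif5a, Eif4ebp1, Eif4a1, Eif4g1, Eif4e and, by a narrow margin, Eif2ak1 lie wholly above the sham range. Eif2ak3 and Eif2ak4 lie wholly below it, and Eif4a2, Eif4g3, Eif4ebp2 and Eif2ak2 overlap.

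Because a plain ratio of 2 genes within 1 library does not depend on how the library was scaled, 8 pairs of related genes were compared in this way. For the log2 differences and tests 0.1 was added to each FPKM. These can therefore depend on scaling, most of all for a gene of low FPKM such as Eif5a2. With 3 rats against 3 the exact permutation test cannot give a p under 0.1, so none could pass 0.05. The FPKM ratio of Eif4a1 to Eif4a2 was 1.65, 1.51 and 1.28 in sham and 2.98, 3.38 and 3.83 in MI/RI rats. The lowest MI/RI ratio was thus above the highest sham ratio, a difference of 1.20 on the log2 scale (exact permutation p = 0.1, adjusted over the 8 pairs p = 0.16). The same holds for 4 other pairs, each with exact permutation p = 0.1 and adjusted p = 0.16. The ratio of Eif5a to Eif5a2 went from 33.5, 40 and 38.7 to 145, 116 and 121, that of Eif4ebp1 to Eif4ebp2 from 2.83, 2.67 and 3.30 to 4.64, 7.29 and 7.49, and that of Eif4g1 to Eif4g3 from 3.45, 2.92 and 2.96 to 9.45, 5.16 and 5.79. The ratio of Eif4g1 to Eif4g2 went from 0.416, 0.337 and 0.213 to 0.774, 0.426 and 0.486, with MI/RI replicate 2 only just above sham replicate 1. In each pair with the groups apart, the first gene was called higher and the second was not called. The ratios therefore partly restate the results of the single genes, and the share of other gene pairs that lie apart was not computed.

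The other 3 pairs overlapped between the groups. The repressor over its target, Eif4ebp1 to Eif4e, was 1.99, 1.24 and 1.26 in sham and 2.11, 1.92 and 2.33 in MI/RI rats, a log2 difference of 0.53 (exact permutation p = 0.2, adjusted p = 0.229). For Eif4e to Eif4e2 the log2 difference was 0.34 (exact permutation p = 0.2) and for Eif1 to Eif1b it was 0.49 (exact permutation p = 0.3).

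**Figure D4:**
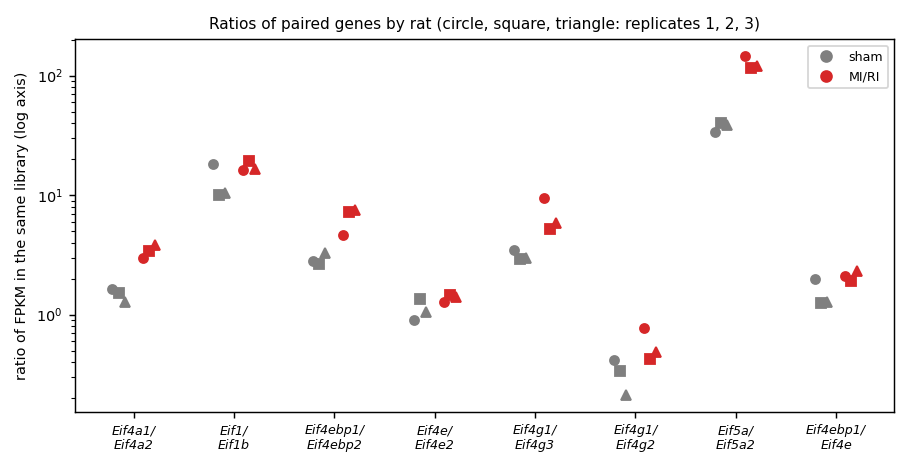
Ratio of the FPKM of 2 related genes in each rat on a log axis, with sham in grey and MI/RI in red. The groups are apart for Eif4a1/Eif4a2, Eif4ebp1/Eif4ebp2, Eif4g1/Eif4g3, Eif4g1/Eif4g2 and Eif5a/Eif5a2, and overlap for Eif1/Eif1b, Eif4e/Eif4e2 and Eif4ebp1/Eif4e.

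Of the 4 eIF2 kinases, 0 were higher by limma (1 at an unadjusted p under 0.05, Eif2ak1) and 1 was lower, against 25.5% and 7.36% of all genes. Eif2ak3 encodes PERK, the kinase that senses unfolded protein in the endoplasmic reticulum, and was at 1.53, 1.91 and 2.01 FPKM in sham and 1.03, 1.05 and 0.689 FPKM in MI/RI rats. Every MI/RI rat was below every sham rat (log2 fold change −0.92, SE 0.26, adjusted p = 0.025). The log2 fold change was negative under each scaling, from −1.65 without the mitochondrially encoded mRNAs to −0.74 with TPM, and the rank within the library went from 7093, 7124 and 6204 to 8956, 8682 and 9758. The call was lost with TPM (adjusted p = 0.0696), without the filter on low values (adjusted p = 0.0617), without sham replicate 2, sham replicate 3 or MI/RI replicate 3 (adjusted p = 0.0677, 0.104 and 0.0882) and with MI/RI replicate 1 alone (log2 fold change −0.75, adjusted p = 0.165).

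Eif2ak4 encodes GCN2, the sensor of uncharged tRNA, and was at 1.02, 1.39 and 1.16 FPKM in sham and 0.764, 0.965 and 0.802 FPKM in MI/RI rats, without overlap but not called (log2 fold change −0.45, adjusted p = 0.22). Eif2ak4 was called lower without the mitochondrially encoded mRNAs (log2 fold change −1.16, adjusted p = 0.0278) and when centred on the median (adjusted p = 0.0466). Under quantile normalization it was not called (adjusted p = 0.122). Eif2ak1, the heme-regulated kinase, stood on the other side, at 2.54, 3.25 and 2.63 FPKM in sham and 6, 3.38 and 3.86 FPKM in MI/RI rats. Its groups did not overlap, with MI/RI replicate 2 only just above sham replicate 2, and it was not called (log2 fold change 0.60, adjusted p = 0.103). Eif2ak2 encodes PKR, the kinase activated by double-stranded RNA. It was at 1.7, 3.03 and 2.51 FPKM against 2.04, 3.33 and 1.92 FPKM, with ranges that overlapped in large part (log2 fold change 0.01, 95% interval −0.65 to 0.66, adjusted p = 0.991).

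The substrate of these kinases, the alpha subunit of eIF2, is encoded by Eif2s1, which was at 13.9, 12 and 11.2 FPKM in sham and 18.2, 20.4 and 15.1 FPKM in MI/RI rats. The groups did not overlap, but the difference was not called (log2 fold change 0.53, adjusted p = 0.0977). Eif2s2, the beta subunit, was higher, at 12.2 ± 1.03 against 23.7 ± 3.32 FPKM (SD, n = 3 each, log2 fold change 0.95, adjusted p = 0.0114). Of the 2 genes for other proteins that deliver initiator tRNA, Eif2d was higher (log2 fold change 0.998, adjusted p = 0.0187), a call lost without sham replicate 2 (adjusted p = 0.0647), and Eif2a was not called (log2 fold change −0.32, adjusted p = 0.272). Without the mitochondrially encoded mRNAs, Eif2a was lower (log2 fold change −1.10, adjusted p = 0.00878). Eif2a was also lower when centred on the median (adjusted p = 0.0257) and under quantile normalization (adjusted p = 0.0158), but not with TPM (adjusted p = 0.715).

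All 5 subunit genes of the exchange factor eIF2B were higher in each MI/RI rat than in any sham rat, as were 37.2% of all genes, and 1 of the 5 was called higher, a share near the 25.5% of all genes. Eif2b3, the gamma subunit, was at 0.782 ± 0.101 against 1.74 ± 0.376 FPKM (SD, n = 3 each, log2 fold change 1.05, adjusted p = 0.015), a call lost without sham replicate 3 (adjusted p = 0.0635). Eif2b2 and Eif2b4 had log2 fold changes of 0.85 and 0.80 (adjusted p = 0.0516 and 0.0521), and both were called with the replicate number as a block (adjusted p = 0.0205 and 0.0197). Eif2b5, which holds the catalytic site, was at 7.26, 6.94 and 6.64 FPKM in sham and 13.6, 8.05 and 7.35 FPKM in MI/RI rats (log2 fold change 0.42, adjusted p = 0.25), and Eif2b1 had a log2 fold change of 0.28. With the mitochondrially encoded mRNAs left out, the log2 fold changes of Eif2b1 and Eif2b5 turned negative, at −0.49 and −0.36.

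The eIF3 group had 12 genes, of which 6 were higher and 0 were lower by limma (0 also at an unadjusted p under 0.05), with a median log2 fold change of 0.72 and a range from −0.46 to 1.38. The share called higher was above the 25.5% of all genes and near the 55.5% of genes with a mean of at least 10 FPKM, and the lowest mean among the 12 was 7.77 FPKM. Eif3b was at 8.9, 7.83 and 7.53 FPKM in sham and 27.4, 19.2 and 17.9 FPKM in MI/RI rats (log2 fold change 1.38, SE 0.24, adjusted p = 0.00427). Eif3c was at 11.3, 13.9 and 10.5 FPKM against 39, 24.9 and 20.4 FPKM (log2 fold change 1.18, SE 0.28, adjusted p = 0.0118). Eif3d, which can itself bind the cap of some mRNAs, was at 4.88, 5.01 and 3.98 FPKM against 14.9, 8.22 and 9.66 FPKM (log2 fold change 1.18, SE 0.26, adjusted p = 0.00983). In all 3 genes the groups were apart and MI/RI replicate 1 was the highest of the 6 rats.

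Eif3g and Eif3i, subunits of the mobile module around Eif3b, had log2 fold changes of 1.03 and 1.01 (adjusted p = 0.00893 and 0.00926). Eif3k rose by 0.86 (adjusted p = 0.0286), but its log2 fold change was −0.0075 under quantile normalization and its call was lost without sham replicate 2 or 3 or any of the 3 MI/RI libraries (adjusted p from 0.051 to 0.113). The 2 most abundant eIF3 genes had smaller log2 fold changes and were not called. Eif3f was at 60.9, 65.4 and 56.7 FPKM in sham and 88.5, 83.7 and 85.7 FPKM in MI/RI rats, without overlap (log2 fold change 0.50, adjusted p = 0.1). Eif3h was at 41.9, 39.3 and 35.5 FPKM against 56.7, 51.4 and 50.2 FPKM, likewise without overlap (log2 fold change 0.44, adjusted p = 0.14).

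Eif3a, the largest subunit, Eif3j and Eif3m had log2 fold changes of 0.57, 0.52 and 0.25 and were not called. Eif3el1 stood apart in direction, at 26.2, 32.1 and 34.5 FPKM in sham and 23.4, 22.6 and 21 FPKM in MI/RI rats, all below the sham range but not called (log2 fold change −0.46, adjusted p = 0.133). Without the mitochondrially encoded mRNAs it was lower (log2 fold change −1.24, adjusted p = 0.00431). Its symbol is also given by RefSeq as an older name of Eif3e, so that which gene these values belong to is uncertain.

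**Figure D5:**
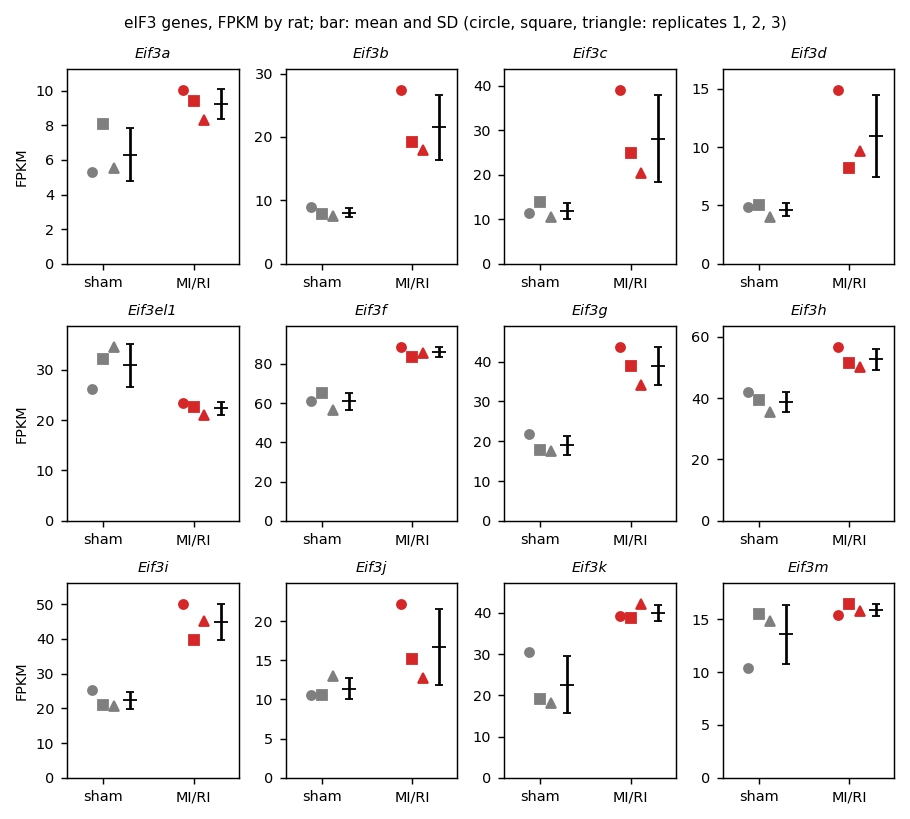
FPKM of the 12 eIF3 genes in each rat, with sham in grey and MI/RI in red, symbols for the replicates, and the mean and SD (n = 3) beside each group; each y axis starts at 0 and has its own scale. Eif3b, Eif3c, Eif3d, Eif3g and Eif3i lie far above the sham range, Eif3f and Eif3h lie above it by less, and Eif3el1 lies below it.

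Eif1, which guards the choice of the start codon, was the most abundant gene of the family, at 98.6, 68.5 and 77.7 FPKM in sham and 149, 164 and 120 FPKM in MI/RI rats. It was higher without overlap (log2 fold change 0.83, SE 0.25, adjusted p = 0.0297), although its log2 fold change was −0.24 under quantile normalization, and the call was lost without sham replicate 2, sham replicate 3, MI/RI replicate 1 or MI/RI replicate 2 (adjusted p = 0.109, 0.0948, 0.0561 and 0.115). Eif1b was at 5.37, 6.89 and 7.39 FPKM against 9.11, 8.49 and 7.26 FPKM and overlapped (log2 fold change 0.34, adjusted p = 0.268). Eif1a rose by 0.68 (adjusted p = 0.0431) in FPKM as deposited, but its log2 fold change was −0.080 without the mitochondrially encoded mRNAs, and its call was lost without any 1 of the sham libraries, MI/RI replicate 2 or MI/RI replicate 3 (adjusted p from 0.0799 to 0.139). Eif4a3, a helicase of the exon junction complex named for its likeness to Eif4a1, was higher (14.2 ± 0.965 against 25.1 ± 1.15 FPKM, SD, n = 3 each, log2 fold change 0.82, adjusted p = 0.0152), a call lost without sham replicate 3 or MI/RI replicate 2 (adjusted p = 0.0623 and 0.0546). Eif1ad and the pseudogene Eif3i-ps1 were not called, with log2 fold changes of 0.16 and 0.42, and the reads of a pseudogene may be shared with its parent gene.

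Of the 19 higher members, 9 were called in all 6 fits that left out 1 library, namely Eif2s2, Eif3b, Eif3c, Eif3d, Eif3g, Eif3i, Eif4a1, Eif4ebp1 and Eif5a. Of these 9, all but Eif2s2 were also called with MI/RI replicate 1 alone (adjusted p = 0.0585 for Eif2s2). MI/RI replicate 1 was the highest of the 6 libraries for 26 of the 49 members, against 44.7% of all genes.

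Other genes of translation and its control were read from a list of 48, of which 45 were found and 40 tested. Of these 40, 15 were higher, against 25.5% of all genes, 1 was lower, against 7.36%, and 24 were not called, with a median log2 fold change of 0.60 beside 0.29 for all genes. Without sham replicate 2 the number called higher was 9, against 17.5% of all genes. Beside Dhps and Dohh, the largest positive log2 fold changes were those of Chac1, Eef1a2 and Pabpc4. Chac1 was at 0.0302, 0.0256 and 0.0266 FPKM in sham, close to 0, and at 0.64, 1.97 and 1.06 FPKM in MI/RI rats. It passed the filter on low values only through the MI/RI rats, so its values are a description and its call among the 15 is no support. Eef1a2, the elongation factor of muscle, was at 6.25, 4.21 and 3.7 FPKM in sham and 76.4, 21.9 and 24.4 FPKM in MI/RI rats (log2 fold change 2.88, adjusted p = 0.00332). Pabpc4, a poly(A) binding protein, was at 40.2, 17.8 and 16.2 FPKM against 113, 60 and 55.4 FPKM (log2 fold change 1.66, adjusted p = 0.0121), a call lost without sham replicate 2 (adjusted p = 0.0609).

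Atf4, the transcription factor whose translation increases when eIF2 is phosphorylated, was at 40.6, 44.1 and 48.9 FPKM in sham and 98.3, 140 and 90.6 FPKM in MI/RI rats. It was higher as deposited (log2 fold change 1.28, adjusted p = 0.00609) and not called without the mitochondrially encoded mRNAs (log2 fold change 0.49, adjusted p = 0.183). Impact, which inhibits GCN2, was the lower gene, at 2.77, 5.9 and 4.1 FPKM in sham and 1.53, 2.85 and 1.56 FPKM in MI/RI rats. MI/RI replicate 2 was above sham replicate 1, and the call (log2 fold change −1.06, adjusted p = 0.0346) was lost without sham replicate 2, sham replicate 3, MI/RI replicate 1 or MI/RI replicate 3 (adjusted p = 0.123, 0.0889, 0.102 and 0.0956). Eef2, the translocase of elongation, Eef2k, the kinase that inhibits it, and Mknk2, which phosphorylates eIF4E, were not called, with log2 fold changes of 0.61, 0.10 and 0.38 (adjusted p = 0.0619, 0.78 and 0.293). Eef1a1 was listed at 0 to 0.0444 FPKM and Ppp1r15a at 0 in all 6 libraries, and neither was tested. As the counting of shared reads is not stated, these values do not show that either gene was silent.

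Promoter sequences were read from RefSeq (GRCr8), from 250 bases before to 50 bases after each gene start, and 44 of the 50 members matched with 47 windows. Among the 44 were 18 of the 19 higher members, without Eif4ebp1. A canonical E-box, CACGTG, which reads the same on both strands, was in 9 member windows (19.1%, against 6.42% of 33469 windows of all genes), of 5 higher members (Eif3b, Eif4e, Eif4g1, Eif4h and Eif5a) and 4 that were not called. The ETS core CCGGAAG, on either strand, was in 20 windows (42.6% against 8.75%) of 7 higher members and 11 that were not called. The CRE core TGACG was in 46.8% of the member windows against 21.2%, CCAAT in 34% against 37.5%, and TGATGNAA, the element bound by ATF4 with C/EBP, in 4.26% against 3.98%. None of these motifs contains another. The 33469 windows were not limited to genes expressed in these hearts. The percentages thus do not set the members against other expressed genes, and an excess cannot be read as particular to initiation factors. Stretches around the E-box, in capitals, are shown for 4 of the higher members because they hold the match on which the 5 genes were counted. Those of Eif5a (chr10:55143342-55143441, minus strand), Eif4g1 (chr11:93746343-93746437, minus strand, with 2 matches), Eif3b (chr12:19334749-19334838, minus strand) and Eif4e (chr2:229740658-229740757, plus strand) read, in the direction of the gene:
Eif5a: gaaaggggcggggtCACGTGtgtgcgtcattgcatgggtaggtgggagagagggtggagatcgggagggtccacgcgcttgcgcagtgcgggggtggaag
Eif4g1: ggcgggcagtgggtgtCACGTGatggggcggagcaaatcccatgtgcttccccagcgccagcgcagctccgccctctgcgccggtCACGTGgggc
Eif3b: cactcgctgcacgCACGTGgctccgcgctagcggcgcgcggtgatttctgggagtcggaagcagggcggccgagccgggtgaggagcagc
Eif4e: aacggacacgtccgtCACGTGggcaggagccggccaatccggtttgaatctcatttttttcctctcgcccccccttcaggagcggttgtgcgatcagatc

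The TATA sequence TATAAA, searched on both strands, was in 2 member windows (4.26% against 14.2% of all windows), those of Eif2s1 and Eif4a2. The start regions of the helicase pair, from 80 bases before to 20 bases after the start, are shown because Eif4a1 was called higher and Eif4a2 was not. Eif4a2 (chr11:91275304-91275403, minus strand) holds the match, in capitals, and Eif4a1 (chr10:54888583-54888682, minus strand) holds no exact match in this stretch. The Eif4a1 stretch does hold TATAAG, which differs from TATAAA only in its last letter. The pair is therefore not set apart by a TATA-like sequence. A match is a run of letters, and binding was not measured.
Eif4a1: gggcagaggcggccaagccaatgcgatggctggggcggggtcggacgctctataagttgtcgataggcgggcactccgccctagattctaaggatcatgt
Eif4a2: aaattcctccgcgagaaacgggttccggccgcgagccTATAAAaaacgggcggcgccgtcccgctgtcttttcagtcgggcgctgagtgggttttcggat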

How the data were processed

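Total RNA was taken with Trizol from myocardial tissue and made into stranded libraries, per the labels. The authors deposited 1 table of FPKM values for 6 rats; the submitters' processing notes name STAR and HTSeq, and versions, genome build, annotation and the total used for scaling are not given in the sources used here. Since the counting of shared reads is not stated, paralogs and pseudogenes are uncertain. Columns were matched to samples by name, and rows of 1 symbol were summed, which left 28293 genes, of which 7092 rows without a symbol kept their identifier. Symbols such as Eif4b, Eif5 and Eif3l matched no row and were not analysed here.

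From the deposited FPKM, log2(FPKM + 0.1) was computed for the 10942 genes with a mean of at least 0.5 FPKM and tested with limma 3.58.1 in R 4.3.3 (intensity trend, Benjamini-Hochberg over all genes, threshold 0.05); the step was tested on simulated data. Sums and ratios were compared with two-sided exact permutation tests (scipy 1.17.1). Depth relative to sham replicate 1 came from the value steps of genes with the lowest FPKM, and depth limits genes near 0. Labels number the rats and do not state how they were paired or processed, so p-values measure the spread between these samples. Deviations from the group means correlated at 0.203, 0.117 and 0.118 for replicates 1, 2 and 3 of the 2 groups. Sham replicate 3 and MI/RI replicate 2, with unlike numbers, correlated at 0.120, so these values do not show that the numbers are pairs. The fit with a replicate block, which takes them as pairs, is therefore only an alternative.

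Any row matching the symbol rule could be named. Values in every rat were required for the 6 called members with the largest log2 fold change in each direction, the 4 most abundant members, the control genes (Eif4ebp1 to Eif4ebp3, the 4 kinases, Eif4e, Eif2s1, Eif2b5 and Eif6) and the genes of the 8 pairs; of the other translation genes, the 5 largest called changes in each direction and Atf4, Ppp1r15a, Mknk2, Eef1a1, Eef1a2, Eef2 and Eef2k were named. The genes and lists were chosen with earlier results of these data known. Alternatives were other pseudocounts and filters, TPM, rescaling without mitochondrial mRNAs, median centring, quantile normalization, no trend, the replicate block, the highest row of a symbol and leaving out each rat; leaving out MI/RI replicates 2 and 3 was chosen after seeing the data.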

Additional observations from a re-analysis of the deposited data

How the results depend on the processing

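Scaling changed the results most. Rescaled without the mitochondrially encoded mRNAs, limma called 1 member higher and 7 lower, with a median of −0.25, 793 of all genes higher and 2857 lower, 5 other translation genes higher and 5 lower, and a log2 ratio of the summed level of −0.076; Eif1a turned to −0.080. Under quantile normalization, 4 members were higher and 4 lower, with a median of 0.021, 1441 of all genes higher and 1559 lower, and 9 other translation genes higher and 4 lower; Eif1 turned to −0.24 and Eif3k to −0.0075. Centring on the median left 4 members, 1554 of all genes and 2 other translation genes lower. Calls among all genes were higher for 77.6% as deposited, 87.3% with TPM, 91.9% at a mean of at least 5 FPKM, 56.5% when centred on the median, 48% under quantile normalization and 21.7% without the mitochondrially encoded mRNAs. With TPM, 1 member, 504 of all genes and 0 other translation genes (1 unadjusted) were lower, and the log2 ratio of the summed level was 0.93. With only genes of at least 5 FPKM, the median was 0.84, and 0 members, 166 of all genes and 0 other translation genes were lower (at an unadjusted p under 0.05, 0 and 0). Without a filter, 0 members and 0 other translation genes were lower (unadjusted, 3 and 1); with a pseudocount of 1, or without the trend, 1 member was lower. The cause of these differences was not tested.

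Leaving out 1 rat gave 10 to 19 members higher and 0 to 2 lower, 1528 to 2557 of all genes higher and 309 to 881 lower, and 9 to 14 other translation genes higher and 0 to 1 lower. With MI/RI replicate 1 alone, 12 members were higher and 0 lower, with a median of 0.83, 469 of all genes lower, 0 other translation genes lower (2 unadjusted), a log2 ratio of the summed level of 0.89 and Eif2s3y at 0.13. With the replicate block, 21 members were higher and 2 lower, as Eif2b2 and Eif2b4 were gained; it changed no other member's call. The other alternatives left the numbers of members called higher within 1.5 times. As 3 rats against 3 allow no exact permutation p under 0.1, the ratios and sums could not be called, and FPKM near 0 in shallow libraries cannot be told apart from counting noise.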
